A study of Mus musculus with 26 samples.

Results

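Expression of 9 genes of nucleic acid sensing and the interferon response was examined in ES cells without ZFP57, as a test for a response to derepressed retroelements. The genes were chosen by symbol, with no threshold on their values, at a time when earlier results of these data were known, and are *Ddx58*, *Ifih1*, *Mavs*, *Tlr3*, *Irf1*, *Irf7*, *Isg15*, *Ifit1* and *Zbp1*, 9 of the 24409 genes in the deposited expression table. ES cells are pluripotent cells grown from the inner cell mass, here male lines of the C57BL/6J strain derived and kept with LIF and inhibitors of Erk and Gsk3 (2i) for at most 15 passages, with passage number matched between genotypes. RNA-seq covered 3 wild-type (WT) libraries and 2 libraries of ZFP57 KO cells, which lack the zygotic gene through disruption of the exons that encode its KRAB domain and zinc fingers. Total RNA was depleted of ribosomal RNA and sequenced as paired reads of 150 bp. The titles number the libraries without saying whether each is a separate line or culture, so that p-values measure the spread between these libraries only.

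Cells detect foreign or misplaced nucleic acid through a small set of receptors. RIG-I (*Ddx58*) and MDA5 (*Ifih1*) bind duplex RNA in the cytosol and signal through the mitochondrial adaptor MAVS, TLR3 binds duplex RNA in endosomes, and ZBP1 binds nucleic acid in the left-handed Z form. Their signals activate transcription factors of the IRF family, among them IRF1 and IRF7, which switch on interferons and interferon-stimulated genes such as *Isg15*, a ubiquitin-like modifier, and *Ifit1*, which binds foreign RNA ends. Pluripotent cells are known for a weak interferon response. RNA of retroelements, which can engage these receptors, was not analysed here. The paper on these cells reports that most transposable elements bound by ZFP57 kept the repressive mark H3K9me3 and stayed silent in KO, with few exceptions. Derepressed retroelements are therefore the premise of the question and not an established state of these KO cells.

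Values are FPKM, fragments scaled to transcript length and library size, which allows levels to be compared between genes per length. The table holds no fragment numbers. Multiplied by gene length, however, the values of 426 to 474 short non-coding RNA genes per library came out whole in units of 0.0170 to 0.0196 FPKM (1 fragment on 1 kb), within 0.05 of a fragment for 91.4 to 94.1% of them where chance gives 10%. This corresponds to 50900000 to 58900000 fragments per library. Fragment numbers below are inferred from this unit and from RefSeq exon lengths, and are approximate. *Zfp57* itself was at 75.9, 72.3 and 70.6 FPKM in WT and at 19.0 and 21.6 FPKM in KO (log2 fold change -1.84, limma's adjusted p = 2.3e-04), and the table does not separate its deleted exons. Of the 14612 genes whose mean reached 0.1 FPKM, 41.1% passed limma's test (Benjamini-Hochberg adjusted p under 0.05), 18.8% higher and 22.3% lower in KO, which is the background for every count below. With 10 ways to split 3 and 2 libraries, 0.1 is the smallest p that exact permutation allows for any gene taken alone.

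The markers of the labelled cell type were present. All 10 ES cell markers were present at 7.54 FPKM or more in every library, up to 301.5 FPKM for *Dppa5a*. They summed to 1093 to 1148 FPKM in WT and to 1178 to 1261 FPKM in KO, and 5 of the 10 were called higher in KO by limma, among them *Klf4* (log2 fold change 0.74) and *Tfcp2l1* (0.60), while the other 5 were not called. The part of this shift in the changes of the pathway genes was not tested. Among 8 immune cell markers, *Lyz2* and *Tyrobp* were listed at 0 in all libraries, and *Ptprc* and *Csf1r* stayed at or below 0.03 FPKM. *Cd68* (6.68 to 8.98 FPKM) and *Cd3e* (2.73 to 6.69 FPKM) made up most of the summed level of this list, which was 13.6 to 14.6 FPKM in WT and 10.7 to 11.8 FPKM in KO. The fibroblast markers *Col3a1*, *Dcn* and *Lum* were listed at 0 throughout, and the 8 genes of that list summed to at most 0.94 FPKM. In such bulk samples, fewer cells of a type and less RNA per cell cannot be told apart.

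Of the 9 genes, 4 were expressed at a level that could be tested and 5 were below a mean of 0.1 FPKM, as were 40.1% of all genes in the table. The sensor *Ddx58*, the adaptor *Mavs* and the Z-nucleic acid receptor *Zbp1* were higher in ZFP57 KO, by 1.53-, 1.31- and 2.11-fold. *Irf1* was lower by a margin that did not pass the test. The sensors *Ifih1* and *Tlr3*, the transcription factor *Irf7* and the effectors *Isg15* and *Ifit1* were at or near 0 in both genotypes, and none of these 5 was higher in both KO libraries than in WT.

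**Figure D1:**
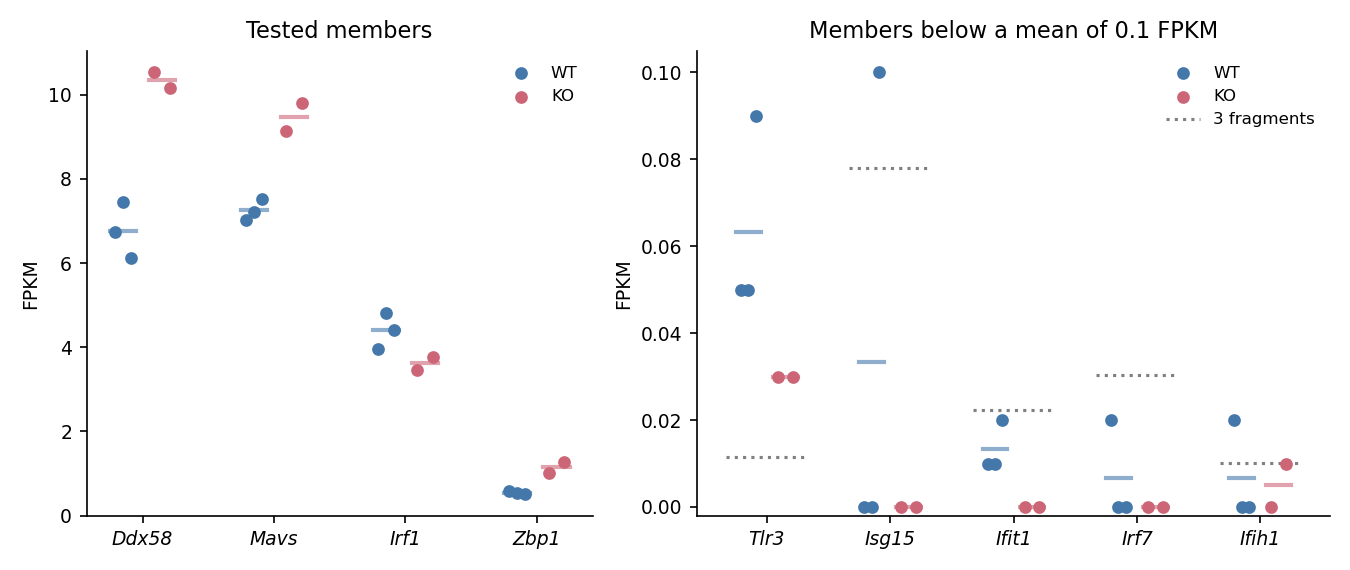
FPKM of the 9 genes in each library (points; blue, 3 WT; red, 2 KO; bars, group means), with the tested genes on the left and those below a mean of 0.1 FPKM on the right on a scale ending near 0.1. Dotted lines give the FPKM of 3 fragments in the library where it is highest, and the KO points of *Ddx58*, *Mavs* and *Zbp1* lie above all WT points.

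*Ddx58* (chromosome 4, 40203777 to 40239825, minus strand, GRCm38) encodes RIG-I. It was at 6.74, 7.44 and 6.13 FPKM in WT and at 10.5 and 10.2 FPKM in KO. Both KO libraries lay above all WT libraries, with a gap wider than the spread within either group. The log2 fold change on FPKM + 0.1 was 0.61 (standard error 0.09, 95% interval 0.40 to 0.82, limma's adjusted p = 0.0029). About 1542 to 2167 fragments per library stand behind the WT values and about 2726 and 2770 behind the KO values. *Ddx58* held its call in all 15 alternatives, from 0.54 to 0.68. No other RefSeq gene overlaps it.

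*Mavs* (chromosome 2, 131234063 to 131248025, plus strand), the adaptor that RIG-I and MDA5 share, was at 7.03, 7.21 and 7.52 FPKM in WT. In KO it was at 9.14 and 9.80 FPKM. The groups did not overlap, and the difference exceeded the standard deviations of 0.248 (n = 3) and 0.467 FPKM (n = 2). The log2 fold change was 0.38 (standard error 0.06, 95% interval 0.24 to 0.52, limma's adjusted p = 0.0039), the smallest of the 3 increases, and it kept its call in all 15 alternatives.

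*Zbp1* (chromosome 2, 173206612 to 173218959, minus strand) had the lowest level and the largest fold change of the tested genes. Its values were 0.59, 0.53 and 0.51 FPKM in WT and 1.01 and 1.28 FPKM in KO. No KO library overlapped WT. The log2 fold change was 0.95 (standard error 0.16, 95% interval 0.57 to 1.33, limma's adjusted p = 0.0050). These values rest on about 57 to 72 fragments per WT library and on about 116 and 155 per KO library. With the replicate number as a block the change was 0.91 and limma's adjusted p was 0.0502, just above the threshold, and over all 14 alternatives the size ranged from 0.47, with a pseudocount of 1, to 1.10, without KO replicate 1.

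*Irf1* (chromosome 11, 53770014 to 53778374, plus strand), a transcription factor that is itself induced by interferons, was at 3.96, 4.82 and 4.42 FPKM in WT and at 3.45 and 3.78 FPKM in KO. Both KO libraries lay below the lowest WT library. The log2 fold change was -0.27 (standard error 0.10, 95% interval -0.52 to -0.03), and limma's adjusted p of 0.0723 missed the threshold. Chromosome 11 as a whole was lower in KO, with a median log2 fold change of -0.47 over its 1224 tested genes, and 73.8% of these were lower than *Irf1*. With the median of each chromosome subtracted, the value of *Irf1* was 0.20 (limma's adjusted p = 0.164). This sign follows from the median and the value of *Irf1* given above and is no test of the shift. Without WT replicate 1 it was -0.35 and passed (limma's adjusted p = 0.0433). The share of the chromosome-wide shift in the value of *Irf1* was not tested.

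**Figure D2:**
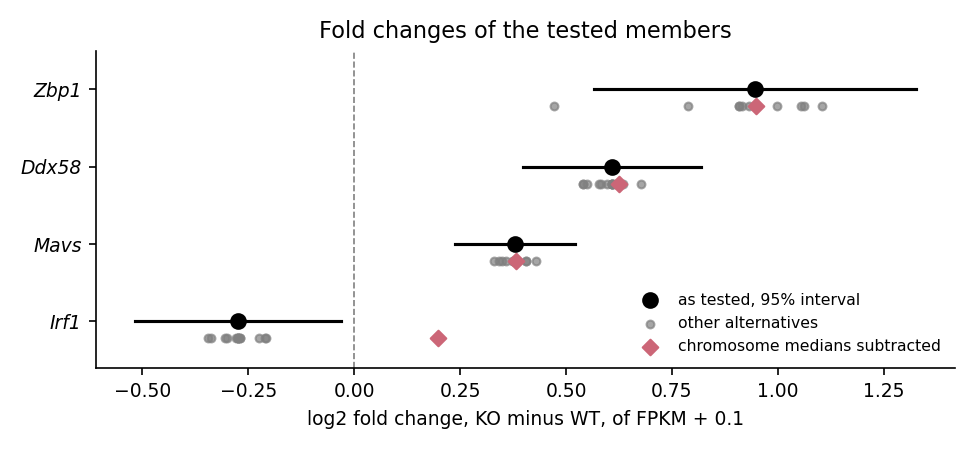
Log2 fold changes of FPKM + 0.1 (KO minus WT) for the 4 tested genes, with 95% intervals (black) and the values under the alternatives (grey; red diamonds, chromosome medians subtracted). *Zbp1*, *Ddx58* and *Mavs* stay above 0 throughout, and *Irf1* crosses 0 only with chromosome medians subtracted.

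Thus 3 of the 4 tested genes were called higher, where 18.8% of all tested genes were, and none was called lower by limma, where 22.3% were. At an unadjusted p under 0.05, 1 gene (*Irf1*) was lower. Both KO libraries were above all WT libraries for 3 of the 4 genes (30.3% of all tested genes) and below them for *Irf1* (33.1%). In the fit as tested no change reached 1 in size on the log2 scale, a size that 8.02% of tested genes reached together with an adjusted p under 0.05. *Zbp1* lay close to it. It passed it with a pseudocount of 0.01 (1.05), with quantile normalization (1.06) and without KO replicate 1 (1.10). With 4 genes, these counts describe the genes and carry no test of their own.

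**Figure D3:**
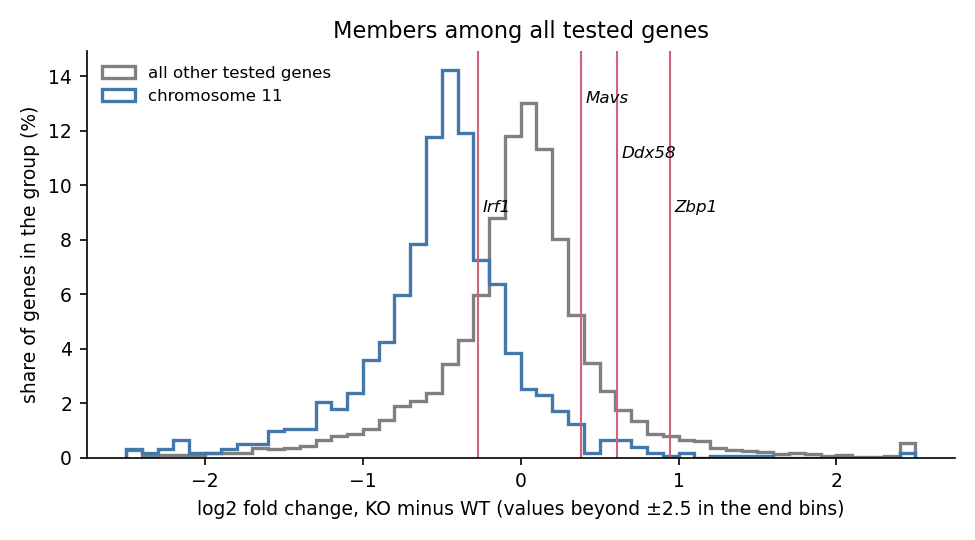
Distribution of log2 fold changes (KO minus WT) for the 1224 tested genes of chromosome 11 (blue) and all other tested genes (grey), in percent of each group per bin, with the 4 tested genes as red lines. *Irf1* lies to the right of the peak of chromosome 11, and *Mavs*, *Ddx58* and *Zbp1* lie to the right of the peak of the other genes.

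In WT the order of levels was *Mavs*, *Ddx58*, *Irf1* and *Zbp1*, and the ranges of *Mavs* (7.03 to 7.52 FPKM) and *Ddx58* (6.13 to 7.44 FPKM) overlapped. In KO the range of *Ddx58* (10.2 to 10.5 FPKM) lay above that of *Mavs* (9.14 to 9.80 FPKM), while *Irf1* and *Zbp1* kept their places without overlap with a neighbour. The profile over the 5 libraries closest to each called gene, by Euclidean distance of centred log2 values among all tested genes, was that of *Cisd2* for *Ddx58* (distance 0.075), of *Mfsd10* for *Mavs* (0.018) and of *Lpin1* for *Zbp1* (0.047).

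The remaining 5 genes rest on few fragments. *Tlr3* (chromosome 8, 45395665 to 45411075, minus strand) was at 0.05, 0.05 and 0.09 FPKM in WT and at 0.03 FPKM in both KO libraries. This amounts to about 52 fragments over the 3 WT libraries and about 16 over the 2 KO libraries, with the KO values below all WT values. *Ifih1* (chromosome 2, 62595618 to 62646255, minus strand) was at 0.02 FPKM in WT 1 and 0.01 FPKM in KO 2 and listed at 0 in the other libraries, about 6 and 3 fragments in all. RIG-I and MDA5 transcripts thus stood far apart in these cells, at several FPKM and at or below 0.02 FPKM.

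*Irf7* (chromosome 7, 141263183 to 141266499, minus strand), the IRF that sustains type I interferon production, was at 0.02 FPKM in WT 1 and listed at 0 in the other 4 libraries. *Isg15* (chromosome 4, 156199424 to 156200818, minus strand) was at 0.10 FPKM in WT 3, about 4 fragments, and listed at 0 elsewhere. *Ifit1* (chromosome 19, 34640889 to 34650009, plus strand) was at 0.01, 0.01 and 0.02 FPKM in WT and listed at 0 in both KO libraries. A value of 0 allows, at 3 fragments per library, at most 0.0780 FPKM for *Isg15*, 0.0305 FPKM for *Irf7* and 0.0223 FPKM for *Ifit1*. These are the values for WT 3, the library with the fewest fragments. *Isg15* and *Ifit1* were above 0 in WT 3, so their limits in the libraries listed at 0 are slightly lower. Such limits cover counting error only. With no filter on low values, limma's adjusted p of these 5 genes lay between 0.156 and 0.915, with the sign of each fold change negative. Overlapping RefSeq genes were present at *Ifih1*, *Isg15* and *Ifit1*, and whether reads were counted by strand is not given in the sources used here.

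Promoter sequence was compared between the sensor that rose and the effectors at or near 0. The 250 bases before the start that the RefSeq promoter table gives (GRCm38.p6), which for these 3 genes is the 5′ end of the gene span, are printed 5′ to 3′ on the strand of the gene. Capitals mark, on either strand, GAAA repeats with 2 bases between them, the core of the interferon-stimulated response element (ISRE) that IRF factors bind, and GAAA repeats with 1 base between them.
Ddx58: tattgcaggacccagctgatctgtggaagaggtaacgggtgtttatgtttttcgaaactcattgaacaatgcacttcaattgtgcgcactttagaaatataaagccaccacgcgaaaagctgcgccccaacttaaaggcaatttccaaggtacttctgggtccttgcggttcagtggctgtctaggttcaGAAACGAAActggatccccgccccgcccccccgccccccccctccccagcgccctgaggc
Isg15: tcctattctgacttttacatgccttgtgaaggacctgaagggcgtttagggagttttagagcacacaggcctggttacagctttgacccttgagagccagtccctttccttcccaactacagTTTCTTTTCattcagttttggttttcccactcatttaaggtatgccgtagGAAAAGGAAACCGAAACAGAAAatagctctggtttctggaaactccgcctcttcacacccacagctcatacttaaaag
Ifit1: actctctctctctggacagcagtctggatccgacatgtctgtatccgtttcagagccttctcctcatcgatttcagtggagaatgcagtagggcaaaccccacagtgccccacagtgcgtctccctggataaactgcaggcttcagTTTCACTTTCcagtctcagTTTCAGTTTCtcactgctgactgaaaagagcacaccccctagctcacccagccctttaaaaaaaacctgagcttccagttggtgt
The window of *Ddx58* is chr4:40239826-40240075, that of *Isg15* chr4:156200819-156201068 and that of *Ifit1* chr19:34640639-34640888. *Ddx58* held a single GAAA repeat with 1 base between, starting 60 bases before the gene start. *Isg15* held 3 overlapping ISRE cores, at 78, 72 and 66 bases, and 1 repeat with the shorter gap on the other strand at 128 bases. *Ifit1* held 2 ISRE cores on the other strand, at 104 and 85 bases. Of 32851 promoter windows of this length, 2.98% held an ISRE core and 2.68% the repeat with the shorter gap. Windows were found for 8 of the 9 genes, all but *Zbp1*, and those of *Ifih1*, *Mavs*, *Tlr3*, *Irf1* and *Irf7* held neither form. The start used lies inside the gene span for *Tlr3*, *Irf7* and the second window of *Irf1*, so that those windows lie within or partly within the gene. The window of *Irf1* held the gamma-activated sequence TTCNNNGAA at 90 bases, present in 7.02% of windows. Among the 8 genes, ISRE cores were thus present only at *Isg15* and *Ifit1*, both at or near 0. The repeat with the shorter gap was chosen after the sequences were seen. It occurred at *Ddx58*, which rose, and at *Isg15*, whereas *Mavs*, which rose too, held neither form. The 3 windows printed are those with either form, and no relation between motif and change is drawn from them. The motifs are given as letters, not as bound sites.

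ZFP57 binding was not listed near these genes. Of the 1423 deposited peaks, each found in 2 or more of 3 WT ChIP-seq replicates, none lay within 20 kb of any of the 9 gene spans, against 4.25% of 24284 placed genes with a peak in that window. The nearest was at *Isg15*, an interval of 569 bp at chr4:156178555-156179123, 20301 bp from the gene and just outside the window. *Tlr3* followed with a peak 32290 bp away. The 3 called genes were farther, with 174877 bp for *Ddx58*, 397403 bp for *Mavs* and 1076743 bp for *Zbp1*. The hexanucleotide TGCCGC, the ZFP57 motif, occurred on either strand in the promoter window of *Ifih1* alone among the 8 genes, and in 8.68% of all windows.

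The other genes of the pathway were taken from 6 lists with 106 genes besides the 9, of which 75 had enough expression to test. In all, 13 were higher (17.3%) and 20 lower (26.7%) in KO, where all tested genes gave 18.8 and 22.3%, with a median log2 fold change of -0.07 against -0.01 over all genes. Without the 8 genes on chromosome 11, 12 were higher (17.6%) and 16 lower (23.5%) of 68 tested, where all tested genes off chromosome 11 gave 20.3 and 18.1%. The counts over all 75 were unstable, with 8 lower under a filter at a mean of 1 FPKM, 4 higher and 11 lower with the replicate block, and 8 higher without WT replicate 2, WT replicate 3 or KO replicate 2.

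**Figure D4:**
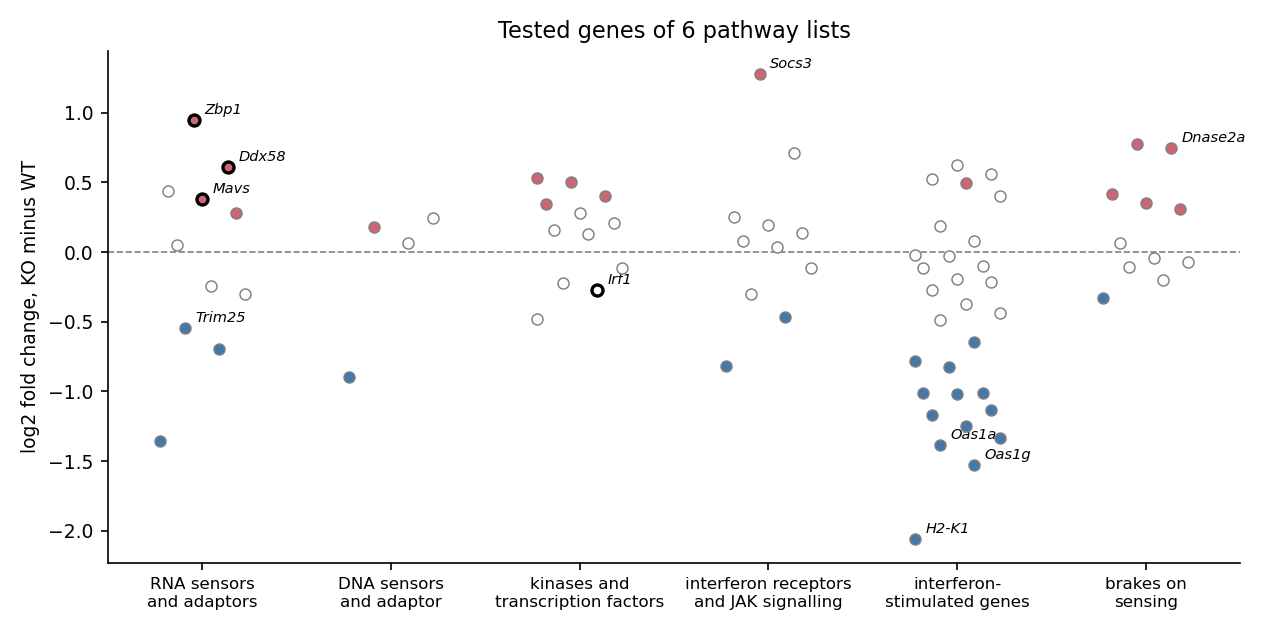
Log2 fold changes (KO minus WT) of tested genes in the 6 lists (filled red, called higher, filled blue, called lower, open, not called, black ring, the 4 tested genes of the 9). Among the called genes besides the 9, all 4 kinases and transcription factors are red and 13 of 14 interferon-stimulated genes are blue, and open points outnumber filled ones in both lists. Of all tested genes, 18.8% were called higher and 22.3% lower.

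Among RNA sensors and adaptors, 8 further genes were tested, of which 1 was higher and 3 were lower (18.8 and 22.3% of all tested genes). *Trim25*, the ubiquitin ligase that activates RIG-I, was at 32.1, 30.0 and 31.9 FPKM in WT and at 21.9 and 21.0 FPKM in KO (log2 fold change -0.55, limma's adjusted p = 6.3e-04). It lies on chromosome 11, near the median shift of that chromosome. *Dhx58*, the RIG-I-like receptor LGP2, which lies on chromosome 11 too, was lower by -0.69, and *Unc93b1*, the chaperone of endosomal Toll-like receptors, by -1.35. *Ripk1*, a kinase downstream of ZBP1 and MAVS, was higher by 0.28 (limma's adjusted p = 0.0309). The RNA-activated kinase *Eif2ak2* (PKR) had a log2 fold change of 0.05 (standard error 0.05). *Tlr7*, *Tlr8* and *Tlr9* did not exceed 0.04 FPKM in any library, and *Mlkl*, the executioner of ZBP1-driven necroptosis, did not exceed 0.06 FPKM.

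Of 4 tested genes of DNA sensing, *Mb21d1* (cGAS) was lower, from 1.00, 0.79 and 0.88 FPKM in WT to 0.43 FPKM in both KO libraries (log2 fold change -0.90, limma's adjusted p = 0.0054). *Ddx41*, a helicase linked to DNA sensing, was higher by 0.18 (limma's adjusted p = 0.0275). The adaptor *Tmem173* (STING) ranged from 0.93 to 1.20 FPKM in WT and was at 1.11 and 1.52 FPKM in KO, and did not pass.

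Kinases and transcription factors had 11 further tested genes, with 4 higher and 7 not called, where 18.8% of all tested genes were higher and 22.3% lower. Among those higher were *Traf6*, a ubiquitin ligase, *Irf3*, the factor activated downstream of MAVS, and *Rela*, a subunit of NF-kB. Their log2 fold changes were 0.50, 0.40 and 0.53, with limma's adjusted p from 0.0039 to 0.0091. *Irf3* rose from 3.10, 3.09 and 2.99 FPKM to 3.99 and 4.16 FPKM without overlap. *Tbk1*, the kinase that acts on IRF3, had a log2 fold change of 0.16 and did not pass (limma's adjusted p = 0.0625).

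Of the interferons listed, none exceeded 0.04 FPKM. *Ifnb1*, *Ifna4*, *Ifne*, *Ifnl2* and *Ifnl3* were listed at 0 in all 5 libraries, and *Ifnk* and *Ifng* were above 0 in a single library each, at 0.04 FPKM in WT 2 and 0.03 FPKM in KO 1. The receptor *Ifnar1* was present at 3.70 to 4.37 FPKM and *Ifnar2* at 0.98 to 1.06 FPKM, neither passing the test. *Ifnlr1*, the receptor of type III interferons, was lower by -0.82, and *Jak2* by -0.47 (limma's adjusted p = 0.0136). *Socs3*, a feedback inhibitor of JAK signalling that LIF induces too, rose from 6.15, 5.63 and 5.56 FPKM to 13.5 and 14.9 FPKM (log2 fold change 1.28, limma's adjusted p = 3.3e-04). It lies on chromosome 11.

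Interferon-stimulated genes were the list with most decreases. Of 30 tested, 13 were lower (43.3%) and 1, *Ifitm3*, was higher by 0.50, with a median log2 fold change of -0.40. Over all tested genes, 22.3% were lower and 18.8% higher. Of the 13, *Ifi35* and *Lgals3bp* lie on chromosome 11. Without that chromosome, 11 of 27 were lower (40.7%), against 18.1% of all tested genes off it. *H2-K1*, an MHC class I heavy chain, fell from 5.35, 4.01 and 5.75 FPKM to 1.22 and 1.02 FPKM (log2 fold change -2.06, limma's adjusted p = 5.9e-04). *Oas1g* and *Oas1a*, oligoadenylate synthetases that switch on RNase L, had log2 fold changes of -1.53 and -1.39, and *Ifi35*, on chromosome 11, of -1.25. *H2-D1*, *Psmb9*, *Herc6*, *Gbp2* and *Trim21* were lower as well, by -1.02 to -1.34. Of the 13 lower genes, *H2-K1*, *H2-D1*, *Oas1a*, *Oas1g* and *Ifi35* had a mean of at least 1 FPKM and the others lay below it. Reads of the class I genes and of the *Oas1* copies can be split between near-identical genes, so single values of these families are uncertain. *H2-D1*, *Psmb9* and *H2-K1* lie 1.73, 2.81 and 3 Mb from the deleted *Zfp57* on chromosome 17. *Skiv2l* lies there too, at 2.15 Mb, and was called higher (0.31), and *Tap1*, at 2.80 Mb, was not called (-0.49). Of 177 tested genes within 5 Mb of *Zfp57*, 23.2% were lower, against 18.3% on the rest of the chromosome and 22.3% of all tested genes. The median log2 fold change was -0.009 within 5 Mb and 0.02 on the rest of the chromosome. The part of this position in the decreases was not tested.

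Levels in the list of interferon-stimulated genes spanned a wide range, and of 46 genes besides *Isg15* and *Ifit1*, 30 reached the mean of 0.1 FPKM needed for the test. Of the remainder, *Usp18*, *Ifit3*, *Ifi44* and *Ccl5* were listed at 0 in all libraries, *Mx1* and *Mx2* did not exceed 0.08 FPKM, and *Cxcl10* did not exceed 0.05 FPKM. Among low genes that were tested, *Ifit2* was at 0.09 to 0.11 FPKM in all libraries. *Rsad2* (viperin) was at 0.09, 0.11 and 0.13 FPKM in WT and at 0.24 and 0.18 FPKM in KO, and did not pass (limma's adjusted p = 0.0824). *Ifitm2* at 62.2 to 71.2 FPKM had the highest level of the list and a log2 fold change of -0.10.

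Genes that restrain sensing, most of them by removing or editing nucleic acid, were all expressed, and 5 of 11 were higher, 1 lower and 5 not called. Over all tested genes, 18.8% were higher and 22.3% lower, and a list this short carries no test of its own. Those higher included *Nlrx1* (log2 fold change 0.77, limma's adjusted p = 0.0204), which is known to act on MAVS signalling rather than on nucleic acid. *Dnase2a*, the lysosomal DNase, rose from 9.31, 9.50 and 10.0 FPKM to 16.9 and 15.5 FPKM (log2 fold change 0.75, limma's adjusted p = 5.7e-04). *Trex1*, a cytosolic DNA exonuclease, and *Skiv2l*, a helicase of the RNA exosome, were higher by 0.41 and 0.31, whereas *Samhd1*, which depletes nucleotides for reverse transcription, was lower by -0.33 (limma's adjusted p = 0.0107). *Adar*, which edits duplex RNA, had a log2 fold change of -0.07 (standard error 0.06). Among the pathway genes named for the lowest adjusted p, *Trim25*, *Ripk1*, *Ddx41*, *Trex1* and *Skiv2l* overlap other RefSeq genes, so their values are less certain.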

How the data were processed

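RNA-seq of 3 WT and 2 ZFP57 KO ES cell samples and ZFP57 peaks were used. The authors deposited FPKM per gene, rounded to 2 decimals, and peaks of C57BL/6J lines (1423) as start and end positions in mm10, from uniquely aligned reads; 743 of them form a list named for hybrid lines. The submitters' processing notes name STAR 2.5.2, BWA 0.6.2 and MACS2 2.1.0; the counter and annotation are not given in the sources used here. KAP1 and H3K9me3 libraries were not used here.

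Values were taken as log2(FPKM + 0.1), genes averaging under 0.1 FPKM were left out, and the rest were fitted by limma 3.58.1 (R 4.3.3, eBayes with trend), KO against WT, with Benjamini-Hochberg adjustment over all 14612 genes and a threshold of 0.05. The pseudocount understates changes of low genes. RefSeq symbols gave 23189 of the 24409 genes a GRCm38 position and synonyms 1095 more. On simulated libraries with 200 of 14408 genes changed by 1 on the log2 scale, 75.5% were recovered with 5 other calls, and 34% of 200 of 14434 genes changed by 0.5, with 2 others. With none changed, 0 genes were called. The simulation drew independent normal noise for each gene, with the WT spread in both genotypes. It held no chromosome-wide shift and no other difference shared by genes of a library, so it does not bear on the share called in the data. Python was 3.11.15, with numpy 2.4.6, pandas 2.3.3 and matplotlib 3.10.9.

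The 9 genes and all lists were chosen with earlier results of these data known, though no measured value entered the rule for the 9. Named beside them were *Zfp57*, up to 4 called genes per list with the lowest adjusted p and a mean of at least 1 FPKM, and the gene with the closest profile. All other genes given with values, and the GAAA repeat with the shorter gap, were chosen after their values or sequences were seen. Some listed genes are counted but not reported by name here. Alternatives covered pseudocounts, filters, scaling, the variance model, chromosome medians, a replicate block, single libraries, thresholds and peak windows.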

Additional observations from a re-analysis of the deposited data

How the results depend on the processing

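*Ddx58* and *Mavs* kept direction and call in all 15 alternatives, and *Zbp1* in 13 of 14. *Irf1* passed without WT replicate 1 and turned positive, to 0.20, with chromosome medians subtracted. The count of the 9 genes called higher stayed at 3 over the fits that left out single libraries, that called lower lay between 0 and 1, pathway genes called higher between 8 and 14 and lower between 15 and 18, and all called genes between 4146 and 4831. Without WT replicate 2, WT replicate 3 or KO replicate 2 the 13 higher pathway genes fell to 8 each time; with 1 KO library left, it is taken to vary like WT. With the replicate block, 2 of the 9 genes and 4 pathway genes were higher, 11 pathway genes were lower and 3012 genes were called in all; the titles share only a number, and deviations of same-numbered libraries correlated at -0.068 and -0.036 across genes. A threshold of 0.01 gave 7 higher and 12 lower pathway genes and 3291 genes in all. An added minimum size of 1 on the log2 scale gave 0 of the 9 genes, 1 higher and 11 lower pathway genes and 1172 genes in all. *Zbp1*, below that size in the fit as tested, was above it with a pseudocount of 0.01 (1.05), with quantile normalization (1.06) and without KO replicate 1 (1.10). A filter at a mean of 1 FPKM, which tests fewer genes, left 8 lower pathway genes and did not test *Zbp1*. A window of 50 kb placed a peak near 2 of the 9 genes and 8.10% of all placed genes. Leaving out chromosome 11 was added after seeing the data. Depth limits the 5 genes below 0.1 FPKM, which rest on few fragments.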

Other observations

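Some markers of other lineages differed between the genotypes beside the genes above. *Eomes* rose from 0.51, 0.60 and 0.38 FPKM to 2.13 and 2.40 FPKM and *Krt8* from 0.66, 0.56 and 0.62 FPKM to 1.73 and 2.13 FPKM, whereas *Tfap2c* was lower by -0.44 on the log2 scale, and the 8 trophoblast markers summed to 17.4 to 19.2 FPKM in WT and 16.7 to 17.9 FPKM in KO. Of the primitive endoderm markers, *Sox7* was higher by 1.82 and *Col4a1* lower by -0.59, and the list summed to 1.18 to 1.43 FPKM in WT and 1.35 to 1.71 FPKM in KO. *Cd3e*, a subunit of the T cell receptor complex, was lower by -0.95 while *Ptprc* stayed at or below 0.03 FPKM.

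*Aim2*, a DNA sensor of inflammasomes, was at 18.8, 20.3 and 18.3 FPKM in WT and at 20.9 and 19.2 FPKM in KO, a higher level than that of any of the 9 genes. It belongs to a family of related genes in a cluster, between which reads can be split.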
